A study of Rattus norvegicus with 6 samples.

Results

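The mitochondrial Slc25 carriers were taken as every non-control probe of the array whose gene name in the array files begins with Slc25a and a number, which gave 56 of 30367 probes, for 41 genes. Each gene was represented by its brightest probe, and 35 of the 41 were bright enough to test, with a probe that stood well above background on 3 or more of the 6 arrays, among 17537 such genes in all. The arrays are 1-colour Agilent arrays of heart RNA, labelled as whole heart, from 3 animals given AACO, a formula of Chinese medicine that the labels name only by these letters, and 3 control animals given double-distilled water. AACO was dosed at 0.386 µg/g, the unit being that of the labels, and either solution was given once a day for 8 weeks, with the hearts taken 24 h after the last dose. The series text says that animals of both groups had TAC, which in work on the heart commonly stands for transverse aortic constriction, a surgical narrowing that loads the left ventricle. It calls them mice, but Rattus norvegicus is the organism of the samples and the probes are placed on the rat build rn4. The labels give no strain, age or sex, and no heart without TAC was among the samples, so the comparison is between treated and untreated operated animals.

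Slc25 proteins form the family of carriers that move metabolites across the inner mitochondrial membrane, which is otherwise closed to charged molecules. They exchange ADP for ATP, bring in phosphate, shuttle malate, aspartate and acylcarnitine, and supply the matrix with cofactors, nucleotides, glutathione and iron. In the heart, whose contraction depends on a constant export of ATP and on the burning of fatty acids, the adenine nucleotide, phosphate and acylcarnitine carriers are among the main routes between mitochondria and cytosol.

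The AACO arrays were somewhat brighter than the control arrays. The share of non-control spots well above background was 70.9% to 72.4% with AACO and 66.0% to 68.7% in control hearts, the median signal before scaling was 212 to 261 with AACO and 143 to 204 in control hearts, and no non-control spot was saturated. Cardiomyocyte markers were high in both groups, and 0 of 8 differed. All AACO arrays were on 1 slide and all control arrays on another, scanned on different days, so for every result the slide and the treatment cannot be told apart. The series text says that experiments used different donors. Each p-value rests on the spread among 3 samples per group, which limma draws toward a value shared by all genes tested. The atrial genes Myl7 and Sln were high on AACO replicates 1 and 2, which stood apart from the other 4 arrays in this respect. A further atrial marker, Myl4, did not follow them and stood between 6.63 and 6.94 on all 6 arrays. The Myl7 level was 4.83, 6.26 and −1.06 on the AACO arrays, against −2.31, −2.91 and −1.51 on the control arrays. Results are therefore also given without each array, and levels throughout are log2 signal relative to the 75th percentile of the array's own non-control spots. A bulk heart sample cannot tell fewer cells of a type from less RNA per cell.

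Tests with limma over all genes, two-sided, called 2 of the 35 carrier genes, Slc25a23 and Slc25a35, both higher with AACO, and called none lower. A gene is said to have risen, fallen or differed where its Benjamini-Hochberg adjusted p was under 0.05. The share of carriers called was 5.71%, below the 11.3% of all genes tested, of which 6.32% were higher and 4.94% lower. Without adjustment 10 of the 35 carriers (28.6%) had p under 0.05, against 30.8% of all genes. For 13 carriers (37.1%) the AACO and control values were fully apart, against 37.4% of all genes, so neither count of carriers was above that of all genes. In all 13 the AACO arrays were above the control arrays, whereas over all genes AACO lay above in 21.5% and below in 15.9%. The counts of carriers above and below were 18 and 0 without scaling, where all genes had 7963 above and 284 below. With spike-in scaling the carriers had 11 and 0, and all genes 3851 and 1619. After quantile normalization the carriers had 12 and 3, and all genes 3262 and 3366. With normexp background correction the carriers had 7 and 2, and all genes 2362 and 3897. Without the filter on dim probes the 41 carriers had 13 and 2, and all genes 4053 and 6525. With the 75th percentile taken over probes, an alternative chosen after seeing the data, the carriers had 11 and 1, and all genes 3031 and 3527. The median log2 fold change of the carriers, AACO minus control, was 0.13, against 0.04 over all genes, and it was −0.02 with normexp, under which the median of all genes was −0.07.

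**Figure D1:**
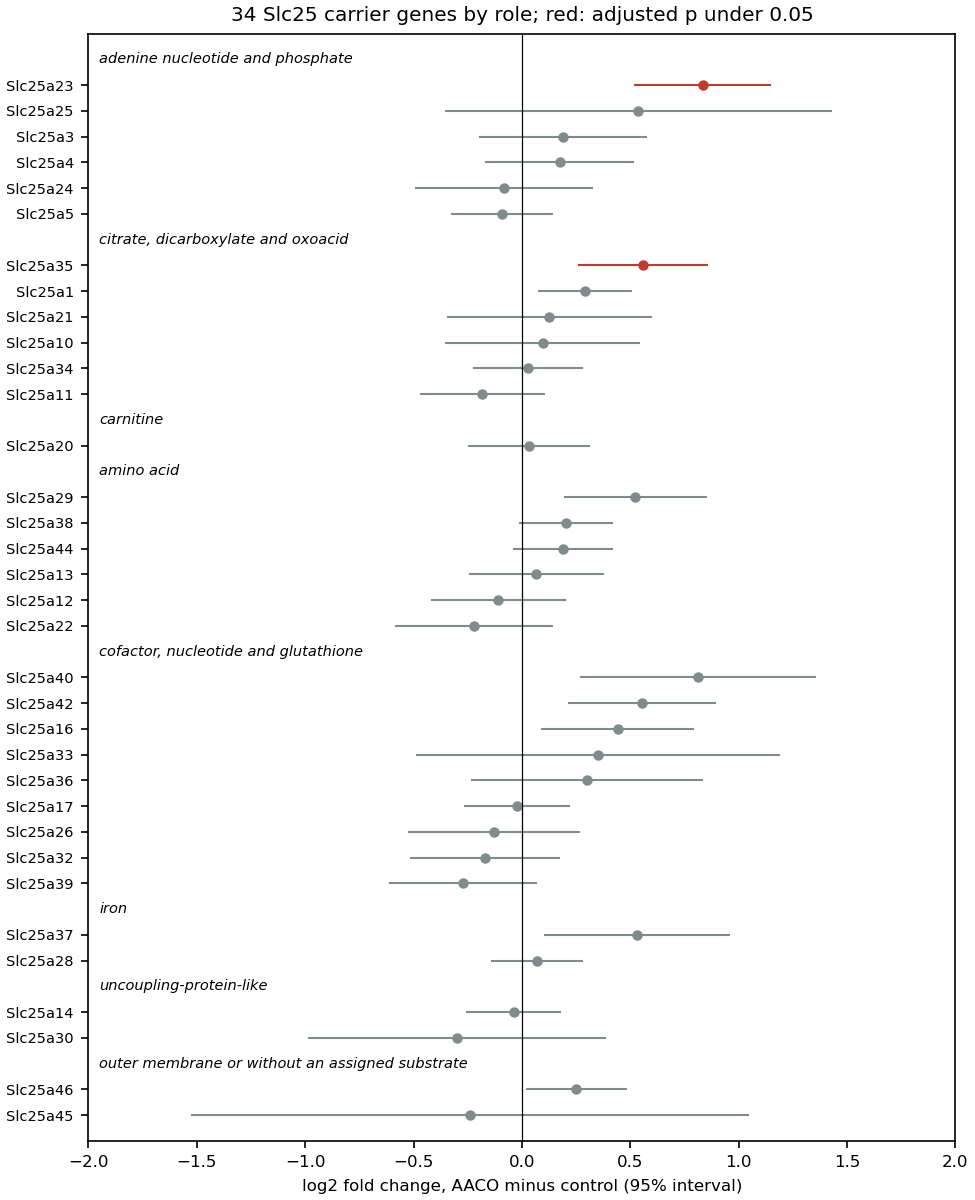
Log2 fold changes (AACO minus control, horizontal axis) of 34 Slc25 carrier genes, with 95% intervals from limma, 3 arrays per group, grouped by role. Slc25a23 and Slc25a35, in red, are the 2 with adjusted p under 0.05; the intervals of Slc25a45 and Slc25a25 are wide, and those of Slc25a20, Slc25a34 and Slc25a17 lie close around 0.

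The carrier with the smallest p was Slc25a23, which encodes a calcium-regulated carrier that exchanges ATP-Mg for phosphate and so sets the size of the matrix adenine nucleotide pool. Its level was 2.03, 1.74 and 1.62 on the AACO arrays, against 0.97, 1.02 and 0.90 on the control arrays. Every AACO array was well separated from every control array, and the control arrays lay close together. The log2 fold change was 0.83 ± 0.13 (SE, 95% interval 0.52 to 1.15), a 1.78-fold rise (adjusted p = 0.0166). The gene has 1 probe, which the array files place on unassigned sequence of rn4 (chrUn, 24722447 to 24722506), so no other probe of the gene could check it. The call was kept in 15 of 18 other settings. It was lost without AACO replicate 2 (log2 fold change 0.86, adjusted p = 0.0706) and without control replicate 3 (0.80, adjusted p = 0.0563). It was also lost with the mean of Myl7 and Sln as a covariate (0.72, adjusted p = 0.271). With that covariate 0 of the 17537 genes were called, so the loss is not particular to Slc25a23. Over all genes 1108 were higher and 867 lower as reported. These counts were 108 and 148 without AACO replicate 2, and 322 and 304 without control replicate 3.

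Slc25a35 encodes a carrier grouped by its sequence with the oxoacid carriers, whose substrate is not settled. Its level was −0.59, −0.45 and −0.77 on the AACO arrays, against −1.28, −1.17 and −1.04 on the control arrays. The groups did not overlap, and the gap between the lowest AACO array and the highest control array was narrower than for Slc25a23. The log2 fold change was 0.56 ± 0.12 (SE, 95% interval 0.26 to 0.85), a 1.47-fold rise (adjusted p = 0.0387; probe at chromosome 10, 55731310 to 55731369, rn4). This call was less firm: it was kept in 9 of 18 other settings and, among the 6 fits that each left out 1 array, only without AACO replicate 3. In the other 5 of these fits the adjusted p lay between 0.0746 and 0.126. With the mean of Myl7 and Sln as a covariate it was 0.44 (log2 fold change 0.32), and 0 of the 17537 genes were called with that covariate.

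The probes of these genes are shown because the 2 calls among the carriers rest on their signals. The promoters of both genes are shown beside them and entered no test. The probes are copied from the array files, 5′ to 3′, with no part singled out.
Slc25a23 probe: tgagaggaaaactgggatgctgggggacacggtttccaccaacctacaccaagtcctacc
Slc25a35 probe: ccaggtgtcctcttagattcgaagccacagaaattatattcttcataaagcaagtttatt

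The promoters are 300 bases around the gene's start, most of them before it, from RefSeq's GRCr8 assembly, at chr9:1985316-1985615 on the minus strand for Slc25a23 and at chr10:54172115-54172414 on the plus strand for Slc25a35. Capitals mark the GC box GGGCGG and the CCAAT box CCAAT, searched on both strands.
Slc25a23: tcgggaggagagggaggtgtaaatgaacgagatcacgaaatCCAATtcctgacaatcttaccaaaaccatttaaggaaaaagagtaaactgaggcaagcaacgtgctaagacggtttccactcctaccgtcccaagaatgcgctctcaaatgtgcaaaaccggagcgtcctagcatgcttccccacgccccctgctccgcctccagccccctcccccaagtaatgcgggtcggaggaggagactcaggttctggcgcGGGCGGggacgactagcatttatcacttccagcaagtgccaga
Slc25a35: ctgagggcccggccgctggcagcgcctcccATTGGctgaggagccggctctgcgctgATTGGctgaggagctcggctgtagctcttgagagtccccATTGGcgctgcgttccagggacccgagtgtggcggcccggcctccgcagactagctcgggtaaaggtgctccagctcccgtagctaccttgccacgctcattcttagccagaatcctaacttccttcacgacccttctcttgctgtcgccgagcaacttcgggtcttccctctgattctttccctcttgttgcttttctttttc

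The promoter of Slc25a35 held 3 CCAAT boxes, all on the opposite strand and therefore reading ATTGG, and no GC box, and that of Slc25a23 held 1 of each. Of the 41 carriers 34 had a promoter in the RefSeq table, and of these 24 (70.6%) held a GC box and 20 (58.8%) a CCAAT box. Of the 28 whose gene was tested, 23 held a GC box and 16 a CCAAT box, and among 10017 promoters of all genes tested the shares were 59.0% and 37.8%. The cyclic AMP element TGACGTCA was in 2 of the 34 and in 2.94% of the tested genes' promoters, and the NRF-1 motif, searched on both strands, was in 0 of the 34 and in 9.14% of the tested genes' promoters. A match is a match of letters in this window only.

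Among the other adenine nucleotide and phosphate carriers none differed. Slc25a4 encodes the ADP/ATP carrier that predominates in heart and muscle. It stood at 4.79, 4.81 and 4.51 on the AACO arrays and at 4.34, 4.70 and 4.54 on the control arrays, a log2 fold change of 0.17 ± 0.14 (SE, 95% interval −0.16 to 0.51, adjusted p = 0.437). Slc25a5, the more widely expressed ADP/ATP carrier gene, stood at 6.69, 6.67 and 6.64 with AACO and at 6.71, 6.88 and 6.69 in control hearts (−0.09 ± 0.10, 95% interval −0.32 to 0.14, adjusted p = 0.553), and a further probe gave −0.04. The values of the groups overlapped for both genes, and the interval for Slc25a5 lay wholly below that for Slc25a23.

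Slc25a3, the phosphate carrier gene, whose product feeds the ATP synthase, read 5.66, 5.63 and 5.54 with AACO and 5.09, 5.64 and 5.52 in control hearts (0.19 ± 0.16, adjusted p = 0.453). Only control replicate 1 was low. Slc25a25, a further calcium-regulated ATP-Mg/phosphate carrier gene, read 0.11, 1.41 and 1.27 with AACO and 0.51, 0.65 and 0.03 in control hearts (0.54 ± 0.37, adjusted p = 0.364). AACO replicate 1 lay within the control range and the other AACO arrays above it, so the spread among AACO arrays, 0.71 (SD, n = 3), exceeded the difference. Slc25a24, of the same subgroup, had a log2 fold change of −0.08 (adjusted p = 0.772), and Slc25a41, which lacks the calcium-binding part, was not well above background on any array. RefSeq's table for GRCr8 lists 9 pseudogene entries named after Slc25a5, 1 after Slc25a4, 2 after Slc25a3 and 8 after Slc25a39. Whether the probes of these genes also read such copies was not tested.

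**Figure D2:**
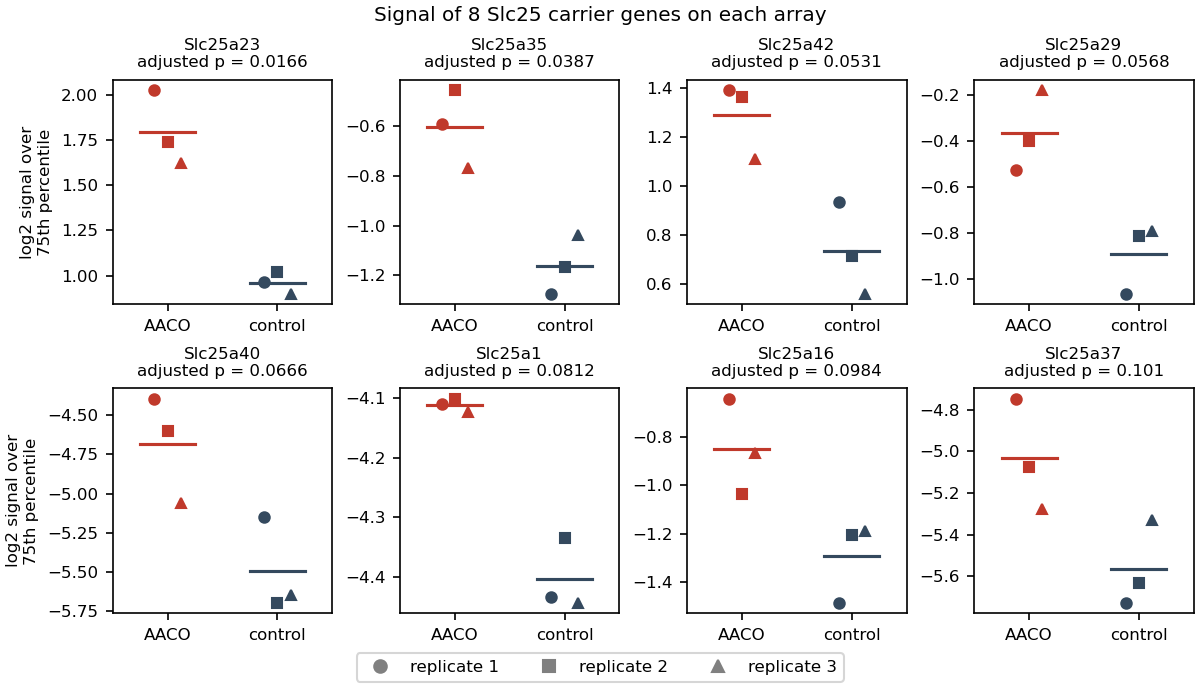
Level (log2 signal over the array's 75th percentile, vertical axes differ in range) of the 8 carriers with the smallest p on each of the 3 AACO and 3 control arrays, with lines at the group means. In all 8 panels the AACO arrays lie above the control arrays, with adjusted p in limma from 0.0166 for Slc25a23 to 0.101 for Slc25a37. The genes were chosen by p from these same arrays, which favours such separation.

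Of the citrate, dicarboxylate and oxoacid carriers, 1 of 6 tested (16.7%) rose, Slc25a35, against 6.32% of all genes. For 2 of the 6 (33.3%) the groups did not overlap, against 37.4% of all genes. Slc25a1 encodes the citrate carrier, which exports citrate for lipid synthesis. It read −4.11, −4.10 and −4.12 on the AACO arrays and −4.43, −4.33 and −4.44 on the control arrays, without overlap and with little spread (0.29 ± 0.09, adjusted p = 0.0812). Its difference reversed in sign with normexp background correction, to −0.11. Slc25a11, the oxoglutarate carrier gene of the malate-aspartate shuttle, read 4.70, 4.80 and 5.05 with AACO and 5.01, 5.06 and 5.01 in control hearts (−0.18 ± 0.12, adjusted p = 0.339). Only AACO replicate 3 reached the control range. The dicarboxylate carrier gene Slc25a10 (0.10, adjusted p = 0.758), the oxodicarboxylate carrier gene Slc25a21 (0.13, adjusted p = 0.691) and Slc25a34, whose substrate is not settled (0.03, adjusted p = 0.886), overlapped between the groups. Slc25a21 was dim, and its difference was −0.10 with normexp.

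The only carrier of acylcarnitines in the family is the product of Slc25a20, through which long-chain fatty acids enter the matrix for beta-oxidation. Its level was 2.92, 3.09 and 3.20 on the AACO arrays and 3.11, 3.08 and 2.93 on the control arrays. The ranges were nearly the same, and the log2 fold change was 0.03 ± 0.11 (SE, 95% interval −0.24 to 0.31, adjusted p = 0.874). The carnitine palmitoyltransferase genes Cpt2 (−0.40, adjusted p = 0.07) and Cpt1b (−0.27, adjusted p = 0.145), whose products act after and before this carrier in turn, did not pass the test.

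None of the 6 amino acid carriers tested passed. For 3 of them (50%) the groups did not overlap, against 37.4% of all genes. Slc25a29 encodes a carrier of basic amino acids such as arginine and lysine. It read −0.53, −0.40 and −0.18 with AACO and −1.07, −0.81 and −0.79 in control hearts (0.52 ± 0.13, 95% interval 0.20 to 0.85, adjusted p = 0.0568). With its interval above 0 but its adjusted p just past the threshold, it passed in 3 of 18 other settings: without scaling, with probes above background on all 6 arrays, and with limma's trend and robust options. Slc25a38, the glycine carrier gene that supplies haem synthesis, read 0.03, 0.10 and 0.14 with AACO and −0.07, −0.12 and −0.15 in control hearts (0.20 ± 0.09, adjusted p = 0.177). Slc25a44, the gene of a branched-chain amino acid carrier known from mouse brown fat, read 0.63, 0.64 and 0.59 with AACO and 0.34, 0.44 and 0.52 in control hearts (0.19 ± 0.09, adjusted p = 0.229). For the last 2 genes the groups were apart by little, and the spread within them was small.

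The aspartate-glutamate carriers, which drive the malate-aspartate shuttle, gave no difference. Slc25a12, the aralar gene and the form typical of heart and muscle, read 4.06, 4.37 and 4.41 with AACO and 4.45, 4.44 and 4.27 in control hearts (−0.11 ± 0.13, 95% interval −0.42 to 0.20, adjusted p = 0.601), and a further probe gave −0.10. Slc25a13, the citrin gene, gave 0.07 (adjusted p = 0.759) and its other probe −0.05. The glutamate carrier gene Slc25a22 read 0.73, 0.65 and 0.36 with AACO and 1.01, 0.64 and 0.74 in control hearts (−0.22 ± 0.15, adjusted p = 0.359), with overlap.

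The carriers of cofactors, nucleotides and glutathione were the largest group, with 10 genes tested, of which 0 passed. An unadjusted p under 0.05 was found for 4 (40%), against 30.8% of all genes. For 4 (40%) the groups did not overlap, against 37.4% of all genes. Slc25a42 encodes the coenzyme A carrier. It stood at 1.39, 1.36 and 1.11 with AACO and at 0.93, 0.71 and 0.56 in control hearts, a 1.47-fold difference (log2 0.55 ± 0.14, 95% interval 0.22 to 0.89, adjusted p = 0.0531). Its other probe gave 0.49, and the adjusted p was under 0.05 in 5 of 18 other settings. Slc25a16, named for a further coenzyme A-related carrier, stood at −0.64, −1.04 and −0.87 with AACO and at −1.49, −1.20 and −1.19 in control hearts (0.44 ± 0.14, adjusted p = 0.0984).

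The brightest probe of Slc25a16 was not matched by the others, which gave −0.08 and 0.11. The 3 probes are shown because they read different stretches of the same gene on chromosome 20 of rn4 (25285167 to 25285226, 25286848 to 25286907 and 25273156 to 25273215, in the order printed) and gave different answers.
Slc25a16 brightest probe: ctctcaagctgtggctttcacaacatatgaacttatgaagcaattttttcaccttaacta
Slc25a16 other probe: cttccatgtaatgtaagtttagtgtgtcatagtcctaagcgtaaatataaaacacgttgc
Slc25a16 last probe: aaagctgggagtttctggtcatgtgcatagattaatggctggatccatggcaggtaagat

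Slc25a40 and Slc25a39 encode the mitochondrial glutathione carriers, and their differences had opposite signs. Slc25a40 was dim, at −4.39, −4.60 and −5.06 with AACO and −5.15, −5.70 and −5.65 in control hearts, and was well above background on 3 AACO arrays and 1 control array. Its log2 fold change of 0.81 ± 0.22 had an adjusted p of 0.0666 and shrank to 0.02 with normexp, while its other probe was well above background on all AACO arrays and no control array, so that no difference is given for it. Slc25a39 stood at 1.28, 1.40 and 1.73 with AACO and at 1.78, 1.80 and 1.64 in control hearts (−0.27 ± 0.14, adjusted p = 0.24), and a further probe gave −0.17. AACO replicate 3 lay within the control range and the other AACO arrays below it. The difference between these 2 genes was not tested.

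The pyrimidine nucleotide carrier gene Slc25a36 stood at −0.92, −0.42 and −0.997 with AACO and at −1.30, −1.22 and −0.72 in control hearts (0.30 ± 0.22, adjusted p = 0.395), with overlap. For its relative Slc25a33 the brightest probe gave 0.35 and the other −0.28, so the probes disagreed in sign. Slc25a32, linked to folate and FAD, stood at −4.03, −3.81 and −3.56 with AACO and at −3.74, −3.57 and −3.59 in control hearts (−0.17 ± 0.14, adjusted p = 0.453). The S-adenosylmethionine carrier gene Slc25a26 (−0.13) and the peroxisomal carrier gene Slc25a17 (−0.02) had adjusted p of 0.624 and 0.898.

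The mitoferrin genes encode carriers that bring iron into the matrix for haem and iron-sulphur clusters. For both, the AACO arrays lay above the control arrays, as for 21.5% of all genes, and neither passed the test. Slc25a37, mitoferrin 1 and the form of developing red cells, read −4.75, −5.08 and −5.28 with AACO and −5.73, −5.63 and −5.33 in control hearts (0.53 ± 0.18, adjusted p = 0.101). Its lowest AACO array was close to the highest control array, and its difference was −0.17 with normexp. Slc25a28, mitoferrin 2, read 2.34, 2.23 and 2.25 with AACO and 2.20, 2.21 and 2.21 in control hearts, a difference of 0.07 ± 0.09 (adjusted p = 0.623). A further probe of Slc25a28 gave −0.02, with overlap between the groups. Erythroid markers went the other way, with 3 of 5 lower with AACO and their mean level between 0.98 and 1.65 with AACO and between 1.90 and 2.26 in control hearts. Their part in the values of Slc25a37 and Slc25a38 was not tested.

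The uncoupling-protein-like carriers Slc25a14 (−0.04, adjusted p = 0.799) and Slc25a30 (−0.30, adjusted p = 0.506) overlapped between the groups. Slc25a46, whose product sits in the outer membrane and takes part in mitochondrial fusion and fission, read 2.16, 2.17 and 2.16 with AACO and 1.91, 2.01 and 1.81 in control hearts (0.25 ± 0.09, adjusted p = 0.133). The AACO arrays were almost level with each other and lay above all controls. Slc25a45, without a settled substrate, ranged from −6.59 to −4.54 among control arrays alone (−0.24 ± 0.53, adjusted p = 0.79), and it was well above background on 2 of the 3 control arrays. Without control replicate 1, its lowest array, it was called lower (−0.89, adjusted p = 0.0379).

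The 6 carriers left untested were Slc25a2 and Slc25a15, the ornithine carriers of the urea cycle, the glutamate carrier gene Slc25a18, the uncoupling-protein-like Slc25a27, Slc25a41, and Slc25a47, which is known from mouse liver. Slc25a15, Slc25a18, Slc25a41 and Slc25a47 were not well above background on any array, and Slc25a2 and Slc25a27 on 1 AACO array each. The unscaled processed signal of Slc25a47 was 5.42 to 6.68 with AACO and 6.36 to 7.34 in control hearts, which is too dim to compare.

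Of 12 carriers with more than 1 probe tested, the probes disagreed in sign for Slc25a16, Slc25a13, Slc25a33 and Slc25a28, none of which had a called difference.

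Related genes from lists of other mitochondrial transporters, of enzymes that work beside the carriers and of the respiratory chain are set beside the carriers here. Among 22 other mitochondrial transporters 2 rose and 1 fell (13.6%, against 11.3% of all genes), with a median of 0.06. The 1 that fell was Ucp3, the uncoupling protein of muscle and heart, which belongs to the same protein family under another name. It read −1.62, −1.55 and −1.88 with AACO and −0.12, −0.42 and −0.56 in control hearts (−1.32 ± 0.15, adjusted p = 0.00974), while Ucp2 did not pass (−0.49, adjusted p = 0.256). Those that rose were Sfxn1, which encodes a serine carrier of the inner membrane outside the Slc25 family (0.51 ± 0.09, adjusted p = 0.0238), and its relative Sfxn2 (1.09 ± 0.25, adjusted p = 0.0436). The pyruvate carrier genes Mpc1 (−0.04) and Mpc2 (0.15) had adjusted p of 0.86 and 0.563.

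Among 31 enzymes beside the carriers 1 rose and 1 fell (6.45%), with a median of 0.04. Both encode enzymes that make aminolevulinate from the glycine that Slc25a38 supplies. Alas1, the form of most tissues, stood at 5.67, 5.50 and 5.69 with AACO and at 5.03, 5.12 and 4.93 in control hearts (0.59 ± 0.10, adjusted p = 0.0229). Alas2, the red cell form and also an erythroid marker here, stood at −0.53, −0.23 and 0.31 with AACO and at 1.37, 1.26 and 0.90 in control hearts (−1.33 ± 0.24, adjusted p = 0.0243). None of 23 respiratory chain and ATP synthase genes differed in limma (median 0.02), and 2 had an unadjusted p under 0.05.

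**Figure D3:**
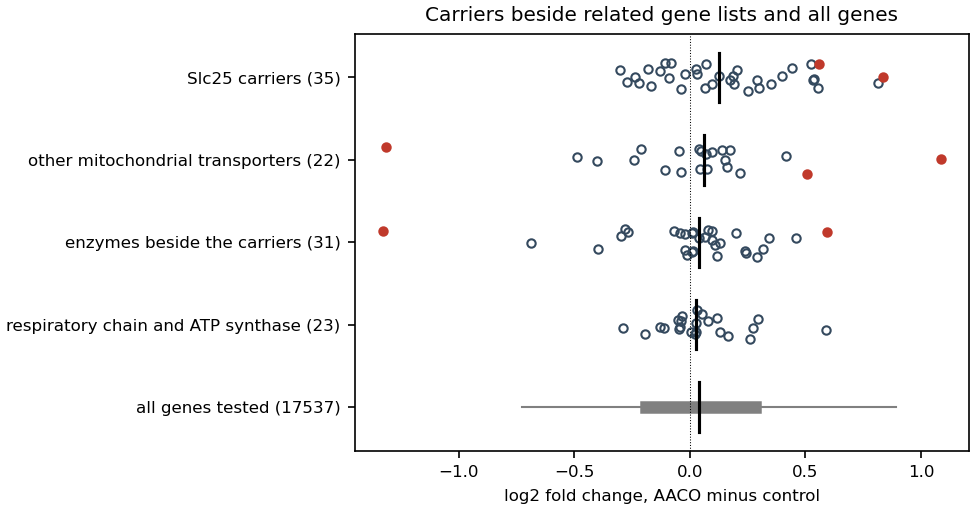
Log2 fold change (AACO minus control) of each tested gene named Slc25a and of the genes in 3 related lists. List medians are black bars and called genes are filled red. For all 17537 genes the thick bar spans the middle 50% and the thin line the middle 90%. The 2 called carriers lie above 0, and the called genes of the related lists lie on both sides of 0. Ucp3, of the same protein family under another name, is plotted with the other mitochondrial transporters and was called lower (−1.32).

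Several cell type markers also differed between the AACO and control arrays. The Schwann cell markers averaged −0.91, −1.04 and −2.67 on the AACO arrays and −3.33, −2.67 and −4.25 on the control arrays, and all 4 had positive fold changes, of which 1 passed. Macrophage markers, of which 8 of 9 fell, averaged −1.996, −1.79 and −1.98 with AACO and −0.84, −0.72 and −0.48 in control hearts. All 5 neutrophil markers had negative fold changes (median −1.41), of which 1, Retnlg, passed, and 5 of 6 endothelial markers had negative ones (median −0.32), of which 0 passed in limma and 3 had an unadjusted p under 0.05. The 4 smooth muscle markers did not overlap, all above the controls with AACO, but 0 passed in limma, all with an unadjusted p under 0.05. Of the 3 atrial markers Myl4 did not differ (0.00, adjusted p = 0.992) and Myl7 and Sln were high on AACO replicates 1 and 2 only. On AACO replicate 3, where they were low, Slc25a23 was at 1.62 and Slc25a35 at −0.77, in both cases the lowest of the AACO arrays and above every control array. The part of these cell types in the carriers' differences was not tested.

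**Figure D4:**
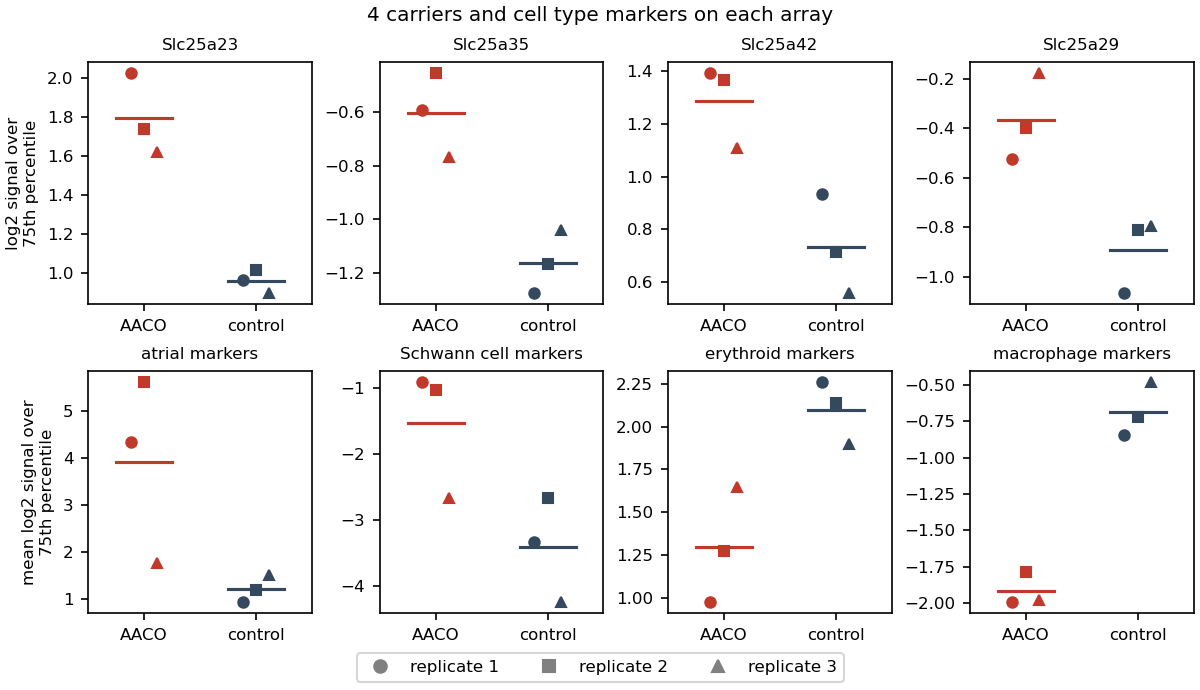
Levels of 4 carriers (top) and mean levels of 4 marker lists (bottom) on each array, as log2 signal over the array's 75th percentile, with lines at group means. AACO replicate 3 (triangle) sits apart from the other AACO arrays for atrial and Schwann cell markers. The 4 carriers are those with the smallest p, and all AACO arrays lie above the control arrays for them. Among the AACO arrays, replicate 3 is the lowest for Slc25a23, Slc25a35 and Slc25a42 and the highest for Slc25a29.

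Across settings, Slc25a23 stayed between 0.72 and 1.32 on the log2 scale and Slc25a35 between 0.32 and 1.04, with the highest values where no scaling was applied. Under that setting the median of all genes was itself 0.52. It called 16 of the 35 carriers higher and 5494 of all 17537 genes higher. Slc25a42 ran from 0.40 to 1.04 and Slc25a29 from 0.41 to 1.01, and Slc25a40 from 0.02 to 1.30.

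**Figure D5:**
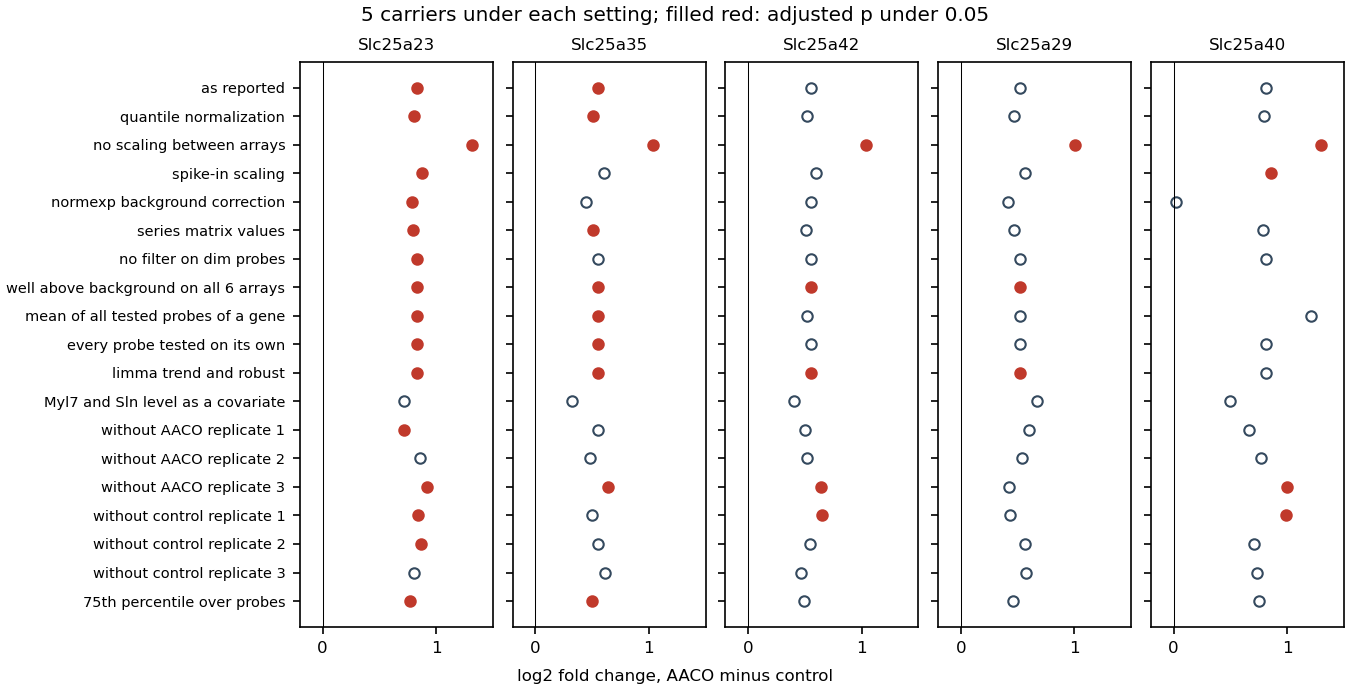
Log2 fold change (AACO minus control) of 5 carriers as reported and under 18 other settings, filled red where the adjusted p was under 0.05. Slc25a23 was called in 15 of 18, Slc25a35 in 9, Slc25a42 in 5, Slc25a29 in 3 and Slc25a40 in 4 of the 17 that gave it a value.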

How the data were processed

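Heart RNA of 3 AACO and 3 control animals was labelled with Cy3 and hybridised to 1-colour Agilent arrays, per the labels' protocols. The deposited intensity values of each array are the processed signals of Agilent Feature Extraction 10.7.1.1, per the file headers and the submitters' processing notes, with background already subtracted. The authors also deposited log2 values of the same arrays, which were used only as an alternative; each column had a median of 6.7708673, the correlation with the scanner's log2 signal was at least 0.99846, and how they were scaled is not given in the sources used here. Samples were grouped by the treatment label.

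Control and outlier spots were left out. The processed signal was set to log2, the array's 75th percentile over spots was subtracted, and spots of a probe were averaged. Probes well above background on at least 3 of 6 arrays were kept (20113 of 30357 with a value on every array). Of the 30357, 18005 had an accession in the RefSeq symbol table, and the others kept the name in the file. Each gene was read from its brightest probe, and 17537 genes were tested with lmFit and eBayes (limma 3.58.1, R 4.3.3) with Benjamini-Hochberg adjustment over all of them. The script was tested on simulated data. With 3 arrays per group the number of arrays limits the precision.

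The carriers, the lists and the tests were chosen with earlier results of these data known. The genes described in full are those with adjusted p under 0.05, then the next by unadjusted p up to 20, and Slc25a3, Slc25a4, Slc25a5, Slc25a11, Slc25a12, Slc25a13 and Slc25a20 in any case; 1 carrier is counted but not reported here. Alternatives were other scalings, normexp, other filters, other choices of probe, limma's trend and robust options, the mean of Myl7 and Sln as a covariate and leaving out each array.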

Additional observations from a re-analysis of the deposited data

How the results depend on the processing

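Over 18 other settings neither of the 2 carriers called as reported changed sign. Of 628 carrier values 46 changed sign, all of them called neither as reported nor under that setting. Slc25a1 and Slc25a37, which were called higher without scaling, had such a change with normexp. The count of carriers called higher, 2 as reported, was 16 without scaling between arrays, 4 with probes above background on all 6 arrays, 4 with limma's trend and robust options, 1 with normexp, 1 without the filter on dim probes and 0 with the Myl7 and Sln covariate. Leaving out 1 array at a time gave 0 to 4 higher and 0 to 1 lower: 1, 0 and 4 higher without AACO replicates 1, 2 and 3, and 3, 1 and 0 without control replicates 1, 2 and 3. The carriers' median log2 fold change, 0.13 as reported, was 0.61 without scaling, where the median of all genes was 0.52, and −0.0224 with normexp, and between 0.07 and 0.18 without single arrays. Over all genes, 1108 were higher and 867 lower; the counts were 5494 and 232 without scaling, 1141 and 508 with spike-in scaling, 776 and 1528 with normexp, 776 and 1401 without the filter, and 0 and 0 with the covariate, where 2277 genes had an unadjusted p under 0.05. Without single arrays they ran from 108 (without AACO replicate 2) to 1225 higher and from 148 to 937 lower. Rises made up 56.1% of calls as reported, 95.9% without scaling, 69.2% with spike-in scaling, 33.7% with normexp, 35.6% without the filter and 45.7% with the 75th percentile taken over probes, an alternative chosen after seeing the data. The filter needing all 6 arrays gave no value for Slc25a40 and Slc25a45. The causes were not tested. No paired analysis was possible because the replicate numbers used here only follow the order of the samples, and no label ties an AACO animal to a control animal. Signals near background limit Slc25a1, Slc25a21, Slc25a32, Slc25a37, Slc25a40 and Slc25a45.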
